A study of Ictalurus punctatus and Ictalurus punctatus x Ictalurus furcatus with 18 samples.

Results

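This account covers 200 liver transcripts that channel catfish express above a minimum level and that hybrid catfish carry at a much higher level, out of 144746 assembled transcripts measured in 18 RNA-seq libraries. The transcripts were chosen by their measured levels, in CPM (counts per 1000000 reads on transcripts). A transcript had to average at least 5 CPM in Red River channel catfish (6 libraries) and in Delta Select channel catfish at the high temperature (3 libraries), which 17952 transcripts did. Its lowest hybrid library (of 6) also had to lie above the highest of those 9 channel libraries, which left 1411 transcripts. For comparison, 2746 of the 17952 had their highest hybrid library below the lowest channel library. The 1411 were ranked by the hybrid mean divided by the higher of both channel means, and the first 200 were taken. The difference between hybrid and channel catfish is therefore given below as a description, without a test.

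The study measured liver RNA of fingerling catfish of 3 types after 6 weeks of daily temperature cycles, in 6 groups of 3 libraries. Hybrid fish from the Delta Select strain (DS hybrid) were kept in a high regime of 32 to 36 °C (libraries H2, H6 and H8) or a low regime of 27 to 31 °C (L1, L4 and L7). Channel catfish of the Red River strain (RRxRR) were kept in the high regime (H1, H4 and H7) or the low regime (L2, L6 and L9), and channel catfish of the Delta Select strain (DSxDS) likewise (H3, H5 and H9, and L3, L5 and L8). Every library was a pool of liver RNA from 3 fish of a tank, so the spread between libraries is a spread between tank pools, and no treatment other than temperature is named in the labels. Because whole liver was sampled, a change in the number of cells of a type and a change in RNA per cell cannot be told apart.

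The labels give the hybrids as a cross of Ictalurus punctatus, the channel catfish, and Ictalurus furcatus, the blue catfish. In aquaculture such hybrids are usually first-generation crosses of a channel catfish mother and a blue catfish father. Each of their cells then holds a chromosome set from either species, and the level of a gene is the sum of what both copies give. The liver makes most plasma proteins and runs much of the metabolism of sugars, fats and nitrogen, and its output depends strongly on feeding and temperature in fish. No library of blue catfish was analysed here, so hybrid levels are set against channel catfish alone. The identifiers consist of a k with a size, which the files do not explain, and a number, and 0 of the 200 matched the gene table of channel catfish, so functions are not assigned and the tissue was not checked against markers.

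Libraries L3 and L5, which the labels place in DSxDS Low, stood apart from their group on these transcripts. The 200 transcripts took 2.18% of the reads in L3 and 1.20% in L5, against 0.554% in L8 of the same group. Whether L3 and L5 carry a wrong label or hold RNA of both types was not tested, so what is said of them holds for the libraries so labelled. The hybrid libraries were at 2.20% to 3.27%, and the 9 channel libraries of the rule at 0.474% to 0.598%. None of L3, L5 and L8 entered the choice of transcripts or the fit behind the tests below, and results that change when they are added are given with both values. Reads on transcripts ranged from 36242058 to 76146359 per library, and no pair of libraries within a group agreed within sampling noise (chi-square per degree of freedom of 7.47 or more).

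**Figure D1:**
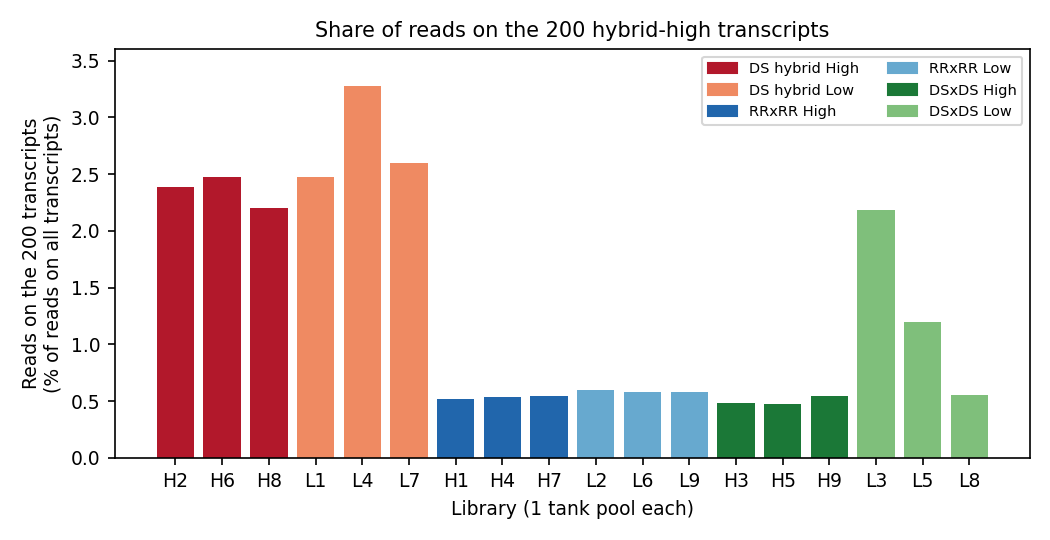
Bars give the reads on the 200 transcripts as a percentage of all reads on transcripts in each of the 18 libraries, coloured by group. All 6 hybrid libraries lie at 2.20% or more and all 9 channel libraries of the rule at 0.598% or less, while L3 (2.18%) and L5 (1.20%) lie above the channel libraries and L8 (0.554%) among them.

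The hybrid excess ran from about 3-fold to over 15-fold. The ratio of the hybrid mean to the higher channel mean had a median of 3.96 (quartiles 3.33 and 5.03), with 9 transcripts above 10, 52 above 5 and 98 above 4. Hybrid means lay between 16.1 and 3312 CPM with a median of 56.0 CPM, against medians of 11.1 CPM in Red River and 10.9 CPM in Delta Select fish at the high temperature. No transcript had under 91 reads in any library of the rule. The lowest hybrid library was at least 2-fold above the highest channel library for 133 of 200 transcripts, with a median of 2.41-fold over the 200. Ranking by ratio over the same libraries favours such gaps, so this describes the choice and is no separate result.

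The transcript with the highest ratio, k86:108599, had 286.9, 243.0 and 186.7 CPM in DS hybrid High (H2, H6, H8) and 240.8, 223.8 and 300.2 CPM in DS hybrid Low (L1, L4, L7). It had 12.6, 14.5 and 15.5 CPM in RRxRR High, 17.1, 12.5 and 14.0 CPM in RRxRR Low, and 15.5, 16.1 and 16.4 CPM in DSxDS High. Every hybrid library thus held over 10 times the level of every channel library of the rule, and the hybrid mean of 246.9 ± 41.6 CPM (SD, n = 6) was 15.5 times the Delta Select mean of 15.98 ± 0.487 CPM (n = 3). The next, k94:1398337, averaged 104.2 ± 11.2 CPM in hybrids, 7.07 ± 0.971 CPM in Red River fish (SD, n = 6 each) and 6.91 ± 1.40 CPM in Delta Select fish at the high temperature (n = 3). Its hybrid libraries were even, between 89.7 and 121.1 CPM, and the largest channel value was 8.42 CPM.

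Reads were spread unevenly over the 200 transcripts. The pair that took most reads held 16.7% of their summed hybrid CPM, and the first 10 held 37.3%. These are read counts that are not divided by transcript length, so they do not rank the transcripts by number of molecules. The transcript k78:1214883 took 3062 to 3660 CPM in the hybrid libraries, against 851.4 to 1276 CPM in the Red River libraries and 375.8 to 544.8 CPM in Delta Select at the high temperature. Its Delta Select to Red River ratio at the high temperature, 0.472, was the lowest of the 200. Its levels did not overlap between hybrid, Red River and high-temperature Delta Select libraries. In the low-temperature Delta Select libraries it had 3020 CPM in L3, 1808 CPM in L5 and 397.0 CPM in L8. The transcript k94:1381150 averaged 975.9 ± 185 CPM in hybrids, against 89.1 ± 17.1 CPM in Red River fish (SD, n = 6 each) and 109.3 ± 18.3 CPM in Delta Select fish at the high temperature (n = 3).

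The cut at rank 200 fell within a smooth run of ratios. The last transcript inside, k90:1943240, had a ratio of 2.981, with a hybrid mean of 16.1 CPM against 5.41 CPM in Red River fish and 5.33 CPM in Delta Select. The first outside, k82:728479, had a ratio of 2.979, with 28.6 CPM in hybrids against 9.61 CPM in Red River and 9.12 CPM in Delta Select fish.

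**Figure D2:**
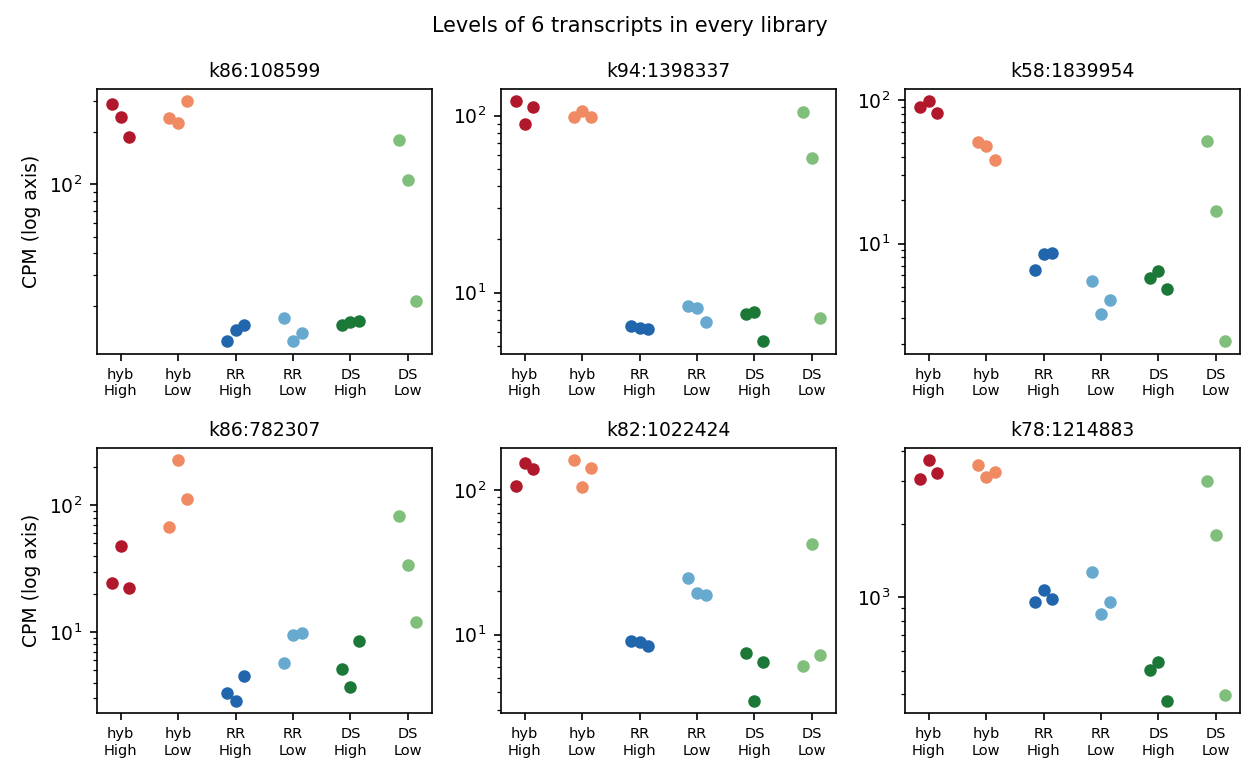
Points give the level in CPM (log axis) of 6 transcripts in each library, in columns by type and temperature, with replicates side by side. In all 6 panels the hybrid libraries lie above the channel libraries of the rule; k58:1839954 is higher and k86:782307 lower at the high temperature, and for k82:1022424 L3 lies at the level of the channel libraries.

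An excess over Red River fish at either temperature is fixed by the rule, and only its size is a description. At the high temperature the ratio of hybrid to Red River means had a median of 4.52 (1.78 to 19.5), and at the low temperature a median of 4.50 (2.31 to 17.6), and 198 of 200 transcripts were at 2 or more at both. Against Delta Select at the high temperature the median ratio was 4.03 (2.14 to 23.0). Median coefficients of variation were 11.3% in DS hybrid High and 12.7% in DS hybrid Low, against 14.4% in RRxRR High, 14.2% in RRxRR Low and 16.8% in DSxDS High. The rule asks that hybrid and channel libraries do not overlap, which favours low spread. Among the 24 transcripts called below as falling in hybrids, the median was 49.3% in DS hybrid Low and 24.6% in DS hybrid High. Which hybrid library was lowest was uneven. H8 was lowest for 55 transcripts, L7 for 43, L1 for 36, L4 for 29, H6 for 23 and H2 for 14. Of the 55 for H8, 30 belong to a block of 32 transcripts described below, and are not counted as separate observations. The same counts over the transcripts past the minimum level were not computed. Without H8, 161 of the 200 were chosen again, the fewest for any library left out.

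The levels of both strains of channel catfish are set side by side here as a description. At the high temperature the ratio of Delta Select to Red River means had a median of 1.05 (quartiles 0.910 and 1.20), with 121 transcripts higher and 79 lower in Delta Select. All 3 Delta Select libraries were above all 3 Red River libraries for 28 transcripts and below them for 11, while 13.0% of the 17952 past the minimum level were above and 4.84% below. At the upper end, k82:1035401 had 11.7, 18.1 and 14.8 CPM in DSxDS High, against 6.40, 6.49 and 9.36 CPM in RRxRR High, and k86:827639 had 25.6, 20.4 and 32.5 CPM against 12.7, 9.51 and 17.4 CPM. At the lower end, after k78:1214883 above, k66:1812270 had 7.58, 3.52 and 4.996 CPM in DSxDS High, against 10.8, 6.63 and 11.5 CPM in RRxRR High. Both strains entered the choice of transcripts, so these differences were not tested.

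The low-temperature Delta Select libraries, which the rule did not use, gave 3 different pictures. On a log2 scale that runs from 0 at the mean of the 9 channel libraries to 1 at the mean of the 6 hybrid libraries, the 200 transcripts had a median position of 0.875 in L3 (quartiles 0.749 and 0.972), 0.516 in L5 (0.432 and 0.606) and 0.0133 in L8 (-0.111 and 0.180). The channel libraries of the rule had medians between -0.0387 and 0.0596. In CPM rather than log2 units, a setting added after the data were seen, the median position was 0.757 in L3, 0.310 in L5 and 0.000591 in L8. L3 exceeded all 9 channel libraries for 196 of 200 transcripts (15.9% of the 17952 past the minimum level), lay below all 9 for 0 (27.8%) and reached the lowest hybrid library for 106. L5 exceeded all 9 for 185 (14.0%), lay below them for 0 (16.8%) and reached the hybrids for 35. L8 exceeded all 9 for 43 (10.2%), lay below them for 23 (23.6%) and reached the hybrids for 8. The shares of the 17952 that reached the lowest hybrid library were not computed. With TMM-scaled library sizes the median in L8 was 0.0882, above the channel libraries of the rule, whose medians then lay between -0.0283 and 0.0504.

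**Figure D3:**
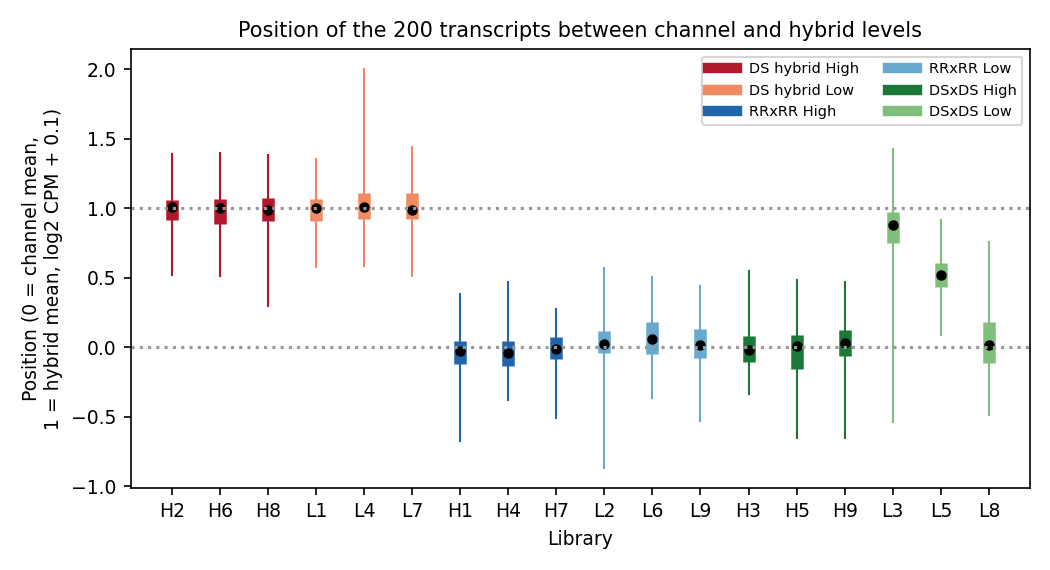
For each library the black point is the median position of the 200 transcripts between the channel mean (0) and the hybrid mean (1) on a log2 scale, the thick bar spans the quartiles and the thin line the full range. Hybrid libraries sit at 1 and channel libraries of the rule at 0 by construction; L3 (median 0.875) and L5 (0.516) sit between, and L8 (0.0133) with the channel libraries.

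The 4 transcripts at which L3 did not exceed the channel libraries were singled out after their values were seen. The transcript k82:1022424 had 6.05 CPM in L3 and 7.28 CPM in L8 but 42.8 CPM in L5, against at least 105.2 CPM in every hybrid library and at most 24.8 CPM in any channel library of the rule. The transcript k86:414506 had 5.06 CPM in L3, 8.90 CPM in L8 and 23.0 CPM in L5, with 42.8 CPM or more in every hybrid library. The transcript k70:1615583 had 9.28 CPM in L3 and 19.5 CPM in L5, with 16.5 CPM or more in every hybrid library. For these 3 L3 was thus lower than L5, although its median position over the 200 was higher. The other, k94:1379272u, had 38.1 CPM in L3 and 28.9 CPM in L5, with 60.1 CPM or more in every hybrid library. In L8 the highest positions were those of k86:334227, with 50.1 CPM against 13.2 to 31.5 CPM in the 9 channel libraries of the rule, and of k82:354307, with 23.5 CPM against 5.15 to 16.5 CPM. The lowest positions in L8 were those of k86:838856 and k78:1291359, with 8.18 and 6.85 CPM, each below all 9 channel libraries.

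The first tested comparison set the high against the low temperature in hybrids. The rule did not use this contrast, but it ranked by the mean over the same 6 libraries, so a transcript could enter through the regime in which it was higher. With each regime's hybrid mean set against the higher channel mean, 46 of the 200 were under the last ratio taken (2.98) at the high temperature and 25 at the low temperature. Among those called below, this held at the high temperature for 18 of the 24 that fell, and at the low temperature for 3 of the 5 that rose. The counts of calls are therefore a description of the chosen transcripts, and no excess over the background is read from them. In the fit of 15 libraries, 24 of the 200 fell (12%) and 5 rose (2.5%) at an adjusted p under 0.05 (edgeR quasi-likelihood test). Of all 95749 transcripts tested, 1.81% fell and 2.29% rose, and of the 17952 past the minimum level 4.62% fell and 4.83% rose. All 200 passed the filter on low counts, and their median log2 fold change was -0.11, against -0.05 over the transcripts past the minimum level. All 3 high libraries lay below all 3 low libraries for 45 of the 200 (22.5%; 11.1% of those past the minimum level) and above them for 37 (18.5%; 20.6%). The number of falls was 3, and of rises 0, when L3, L5 and L8 were added to the fit. It was 23 and 5 with L8 alone added. The falls numbered 5 without H8, 7 without H6, 8 without L7, 9 without H2 or L4 and 15 without L6, and the rises 1 without H6, 2 without L1, L4 or L7 and 3 without H2 or H8.

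The steepest called fall in hybrids was that of k86:782307, with 24.5, 47.6 and 22.5 CPM in DS hybrid High and 67.9, 226.2 and 111.4 CPM in DS hybrid Low. The groups did not overlap, and L4 was highest. The change of -2.21 ± 0.49 (log2, SE) passed the edgeR test at an adjusted p of 0.0296, but it was not called without H2, H8, L4 or L7 (-1.60 to -2.33) or with all 18 libraries (-2.21). Among the called transcripts k66:1812270 came next, with 34.9, 36.3 and 16.7 CPM in DS hybrid High and 58.5, 181.9 and 86.9 CPM in DS hybrid Low, a log2 change of -2.01 ± 0.46 (adjusted p = 0.0324, edgeR). Its call was lost without H2, H6, H8, L4, L6 or L7 (-1.41 to -2.23), with no filter on low counts (-2.01) and with all 18 libraries (-2.01).

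Rises in hybrids were smaller, between 0.58 and 0.87 on the log2 scale. The transcript k58:1839954 had 89.5, 98.7 and 81.9 CPM in DS hybrid High, against 50.8, 47.9 and 38.0 CPM in DS hybrid Low, a difference of 0.87 ± 0.20 in log2 units at an adjusted p of 0.0172 in edgeR. It was not called without H6, L4 or L7 (0.77 to 0.92) or with all 18 libraries (0.87). The transcript k86:832942 had 114.7, 127.5 and 104.4 CPM in DS hybrid High, against 66.5, 64.5 and 58.9 CPM in DS hybrid Low (0.76 ± 0.20, edgeR, adjusted p = 0.0404). Its call was lost without H2, H5, H6, H8, L1, L4 or L7 (0.65 to 0.83), with all 18 libraries (0.76) and with only the hybrid and Red River libraries fitted (0.77).

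Of the 24 called falls, 18 belonged to a block of 32 transcripts. These 32 were set apart after their values were seen, at a gap in the hybrid log2 fold changes: they lay between -1.29 and -2.21, and the next transcript was at -0.98. At the high temperature 29 of the 32 were under the last ratio taken, and at the low temperature 0, so these 29 entered through the low-temperature libraries. Together they took 0.356%, 0.393% and 0.241% of the reads in DS hybrid High (H2, H6, H8) and 0.505%, 1.38% and 0.753% in DS hybrid Low (L1, L4, L7). L4 was the highest of all 18 libraries for 30 of the 32 and H8 the lowest hybrid library for 30. The 32 were set apart by low levels in DS hybrid High against DS hybrid Low, so both counts are partly built in. Over all 200, L4 was the highest hybrid library for 51 and H8 the lowest for 55. Such counts over the transcripts past the minimum level were not computed. The other 168 transcripts took 2.03%, 2.08% and 1.96% in DS hybrid High and 1.97%, 1.90% and 1.85% in DS hybrid Low, with a median log2 fold change of -0.05.

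The same block was also high in L3. It took 0.633% of the reads in L3, above every high-temperature hybrid library and above L1, and L3 exceeded all 3 high-temperature hybrid libraries for all 32 transcripts. The 32 were set apart by low levels in those 3 libraries against the low-temperature hybrids, so that count is partly built in. Its share over the 17952 past the minimum level was not computed. The block took 0.271% in L5 and 0.1995% in L8, against 0.104%, 0.0754% and 0.160% in DSxDS High. L8 was above all 3 DSxDS High libraries for 29 of the 32, against 70 of all 200, and the share past the minimum level was not computed. In Red River fish the block took 0.141%, 0.109% and 0.158% at the high temperature and 0.135%, 0.171% and 0.186% at the low temperature, and none of the 32 was called there by edgeR (median log2 fold change -0.23). Whether the block comes from 1 gene or several was not tested.

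**Figure D4:**
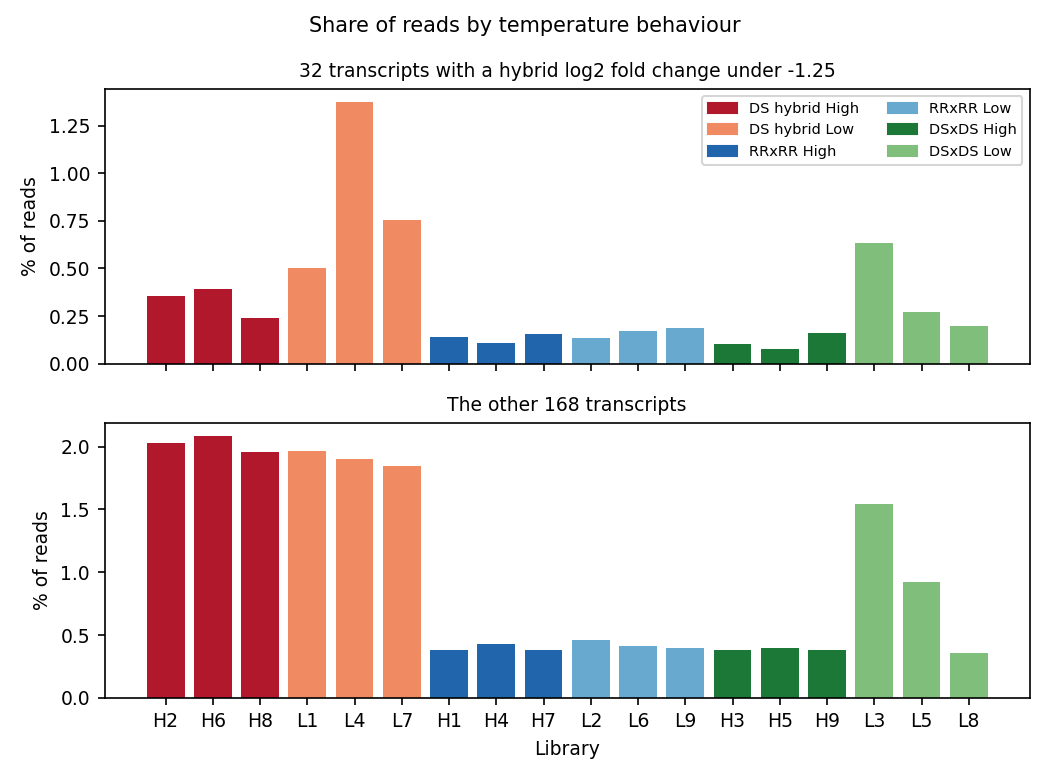
Bars give the percentage of reads in each library on the 32 transcripts with the most negative log2 fold change in hybrids (upper panel) and on the other 168 (lower panel), coloured by group. In the upper panel L4 (1.38%), L7 (0.753%) and L3 (0.633%) stand highest, while in the lower panel all 6 hybrid libraries lie between 1.85% and 2.08%.

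Library L8, which neither the rule nor the fit used, was set against the 3 DSxDS High libraries, which entered both. It was above all 3 DSxDS High libraries for 20 of the 24 transcripts that fell in hybrids and below them for 0, and it was below all 3 for the 5 that rose. Over all 200 it was above for 70 and below for 62, and the share over the 17952 past the minimum level was not computed. Of the 24 falls, 18 belong to the block of 32 and are not counted as separate observations. The comparison is 1 library against 3, and those 3 had to lie below every hybrid library. No test was made, and no support for the hybrid calls is read from these counts.

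The high temperature was also tested against the low in Red River fish. All 6 Red River libraries entered the rule, through the minimum level, the highest channel library and the ratio. The values below therefore describe the chosen transcripts, and no difference from the background is read from them. At an adjusted p under 0.05 (edgeR), 14 of the 200 fell (7%) and 5 rose (2.5%), while of all transcripts tested 3.22% fell and 4.67% rose, and of those past the minimum level 5.55% fell and 9.6% rose. The median log2 fold change was -0.12 for the 200, against 0.02 past the minimum level. All 3 high libraries lay below all 3 low libraries for 45 (22.5%; 20.5% of those past the minimum level) and above them for 16 (8%; 17.2%). With all 18 libraries fitted, 0 were called in either direction. In that fit 22 of the 200 had an unadjusted p under 0.05 (edgeR), and 18352 of all 96799 tested. In the fit of 15 libraries these counts were 48 of the 200 and 20361 of all 95749 tested. With L8 alone added, 15 fell and 4 rose. The falls numbered 8 without L6, and the rises 2 without H7 or L6 and 3 without H1.

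The steepest fall in Red River fish was that of k82:1022424, with 9.10, 8.88 and 8.35 CPM in RRxRR High and 24.8, 19.5 and 18.7 CPM in RRxRR Low. It changed by -1.20 ± 0.25 in log2 units (SE; adjusted p = 0.00582, edgeR), and in hybrids it was -0.13 ± 0.24 (adjusted p = 0.840). The transcript k74:1447970 had 5.49, 5.44 and 5.01 CPM in RRxRR High and 13.0, 12.1 and 8.36 CPM in RRxRR Low (-1.01 ± 0.18, edgeR, adjusted p = 0.00124). The largest rise was that of k50:2867408, with 13.3, 17.0 and 17.3 CPM in RRxRR High against 9.93, 5.41 and 7.15 CPM in RRxRR Low (1.125 ± 0.24, edgeR, adjusted p = 0.00827). Of these 3 transcripts, none was called with all 18 libraries, and their log2 fold changes were the same to 2 decimals or differed by 0.01. The transcript k58:1839954, which rose in hybrids, rose in Red River fish as well, with 6.50, 8.42 and 8.64 CPM at the high temperature against 5.52, 3.25 and 4.03 CPM at the low temperature (0.93 ± 0.21, edgeR, adjusted p = 0.00944). It was not called there without H7 (0.82), without L6 (0.71) or with all 18 libraries (0.93).

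The signs in both types, which share no library, are given beside those of all 200, of which 121 were negative in Red River fish and 126 in hybrids. Of the 24 falls in hybrids, 22 had a negative log2 fold change in Red River fish and 2 were called there. However, 18 of the 24 belong to the block of 32 and are not counted as separate observations. Of the 5 rises in hybrids, all 5 were positive in Red River fish and 1 was called there. In the other direction, 11 of the 14 Red River falls were negative and all 5 rises positive in hybrids. How often called transcripts past the minimum level share a sign or a call between the types was not computed. No agreement particular to the 200 is therefore read from these counts. Averaged over both types, 34 of the 200 fell (17%) and 15 rose (7.5%) by the same edgeR test, against 6.25% and 7.23% of all tested and 12.2% and 12.7% of those past the minimum level. No difference from the background is read from these counts either, since the rule used the same libraries. The falls numbered 22 without H8 or L9, and with all 18 libraries 14 fell and 2 rose. The averaged effect was largest upward for k50:2867408 (0.99 ± 0.17, adjusted p = 0.000811, edgeR) and k58:1839954 (0.90 ± 0.15, adjusted p = 0.000327), neither of which was called with all 18 libraries (0.99 and 0.90). Downward it was largest for k86:782307 (-1.69 ± 0.35, adjusted p = 0.00819, edgeR), called in every alternative run, and for k90:1898440u (-1.47 ± 0.38, adjusted p = 0.0284), whose call was lost without any of H1, H2, H4, H8, L4, L6, L7 and L9 (-1.18 to -1.48). In all, 143 of the 200 transcripts were called in none of these 3 comparisons. The share over the 17952 past the minimum level was not computed, so no lack of response is read from the 143.

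**Figure D5:**
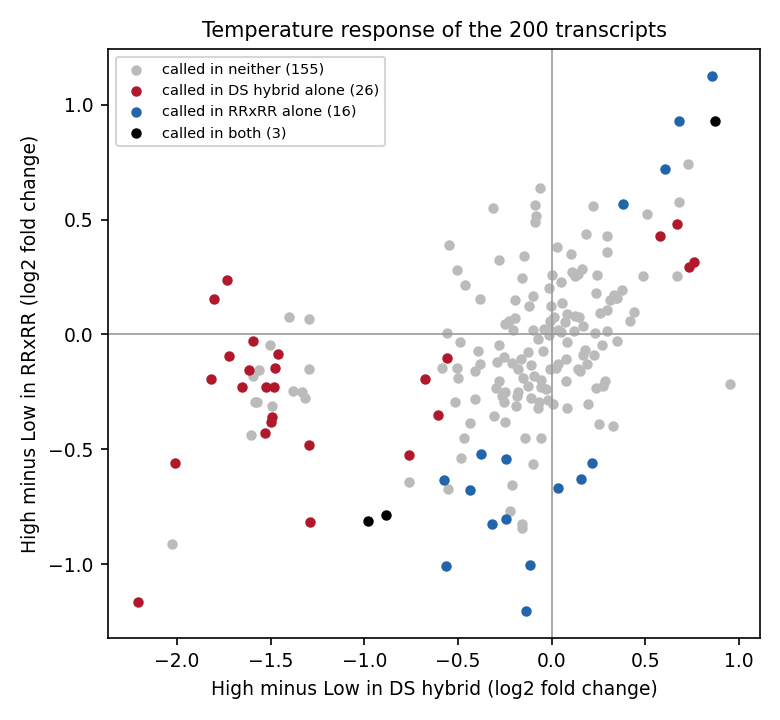
Each point is 1 of the 200 transcripts, with its log2 fold change of high minus low temperature in hybrids (horizontal axis) and in Red River fish (vertical axis), coloured by the type in which it was called. A block of points lies at the left, with hybrid log2 fold changes from -1.29 to -2.21 and Red River values near a median of -0.23, apart from the main cloud around 0.

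A difference in temperature response between hybrids and Red River fish was called by edgeR for 0 of the 200 transcripts, while 38 (19%) had an unadjusted p under 0.05. Of all 95749 tested, 0.00313% were called and 7.15% had an unadjusted p under 0.05. Of the 17952 past the minimum level, 0 were called and 1578 had an unadjusted p under 0.05. With all 18 libraries fitted, 0 of the 200 were called and 15 had an unadjusted p under 0.05 (edgeR). In that fit 5619 of all 96799 tested had an unadjusted p under 0.05. The block of 32, set apart by its fall in hybrids, held 21 of the 38, and the other 168 transcripts held 17. The 38 are therefore not counted as separate observations, and no excess over the background is read from them. DESeq2 called 3 of the 200 and limma-voom 0. The lowest p in edgeR was that of k78:1265267, with 36.9, 46.1 and 41.1 CPM in DS hybrid High and 37.0, 32.1 and 34.3 CPM in DS hybrid Low. In Red River fish it had 7.07, 6.96 and 7.24 CPM at the high temperature and 12.2, 11.6 and 10.6 CPM at the low temperature. The difference was 0.79 ± 0.19 (log2, SE; edgeR, adjusted p = 0.321), and 0.79 in DESeq2 (adjusted p = 0.0365). The other DESeq2 calls, k90:1889782 and k90:1893747, belong to the block of 32, with differences of -1.95 and -1.96 (adjusted p = 0.0237 each in DESeq2) and of -1.96 and -1.97 in edgeR (adjusted p = 0.468 each). All 3 high libraries were above all 3 low libraries in hybrids and below them in Red River fish for 2 of the 200, and for 0.579% of those past the minimum level. The reverse held for 0 of the 200 and for 0.0501% of those past the minimum level.

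Some of the 200 identifiers ran closely together over the libraries and are not counted as separate observations here. For each pair the SD over all 18 libraries of the log2 ratio of their levels (with 0.1 CPM added) was taken. Its median over 19900 pairs was 0.59, and 12 pairs, joining 20 transcripts into 9 groups of at most 3, were under 0.1. The rule chose transcripts that share a hybrid excess, which favours a low SD. Pairs of other transcripts past the minimum level were not computed. The closest pair, k90:1901522 and k90:1885938, kept a ratio of 2.13 with an SD of 0.0583, where counting error alone gives 0.0413. The next, k74:1400488 and k82:994764, kept a ratio of 2.00 with an SD of 0.0595, where counting error gives 0.0563. All 4 belong to the block of 32, within which the median SD was 0.32. Whether such identifiers are pieces of the same transcript, or share reads, was not tested.

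The identifiers of the 200 began with k82 or k86 in 41.5% of cases, against 32.9% of the 17952 past the minimum level and 14.1% of all transcripts. An identifier ending in u, whose meaning the files do not give, was found for 3.5% of the 200, 1.97% of those past the minimum level and 6.10% of all.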

How the data were processed

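The authors deposited raw read counts per assembled transcript for 18 libraries (TruSeq version 2, single reads of 50 bases, per the labels' protocols), and a second table with a normalized signal, which the authors made by dividing each count by 1 factor per library. The submitters' processing notes list Bowtie2 2.1.0, DESeq 1.12.1 and R 3.1.0 without roles. Neither the assembler nor strand nor the handling of reads that fit several transcripts is given in the sources used here, so reads shared between transcripts or parental copies make single counts uncertain. A row naming no transcript held 24.2% to 25.6% of reads and was left out.

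CPM was computed from column sums. The 200 transcripts, the groups compared and the comparisons were chosen with earlier results of these data known. Temperature contrasts (high minus low) in hybrids, in Red River fish, averaged, and their difference were tested with edgeR 4.0.16 (quasi-likelihood, robust, TMM, filterByExpr with a minimum count of 10 and total of 15) in R 4.3.3, with 1 mean per group over 15 libraries of 5 groups. The group holding L3, L5 and L8 was left out of that fit. P-values were adjusted by Benjamini-Hochberg over 95749 transcripts, and standard errors come from the F statistic. The test was also run on simulated counts, with transcripts drawn independently and a shift in DS hybrid High alone. Those counts do not mimic transcripts that move together, such as the block of 32, and no result here rests on them. DESeq2 1.42.0, limma 3.58.1 and other settings were alternatives. Named transcripts are at most 2 a direction and result, by largest ratio, reads, effect or position. Library codes number tanks within a regime and pair nothing.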

Additional observations from a re-analysis of the deposited data

Results flagged for a closer look

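The reads on the 200 transcripts in L3 and L5, libraries that enter neither the rule nor the tests, lay above the channel libraries. They came to 2.18% of reads in L3 and 1.20% in L5, against at most 0.598% in the 9 channel libraries of the rule.

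For 2 transcripts every hybrid library of the high temperature was above every one of the low temperature while the order in Red River fish was the opposite. The log2 fold changes of k62:2082107 were 0.22 in hybrids and -0.09 in Red River fish, a difference of 0.31 (edgeR, adjusted p = 0.838). Those of k54:1863841 were 0.25 and -0.39, a difference of 0.65 (edgeR, adjusted p = 0.587, unadjusted p = 0.0137). Neither difference passed the test. The pattern held for 2 of the 200 (0.579% of the transcripts past the minimum level) and the reverse for 0 (0.0501%).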

How the results depend on the processing

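Members called in hybrids came to 5 rises and 24 falls, and to 0 and 3 with all 18 libraries, 13 falls with no filter on low counts and 40 in DESeq2. In Red River fish 5 rises and 14 falls became 0 and 0 with all 18 libraries. Averaged over both types, 15 rises and 34 falls became 2 and 14 with all 18 libraries, with 53 falls in DESeq2. For the difference between types, DESeq2 called 1 positive and 2 negative of the 200, and over all transcripts 149, against 3 in edgeR, 0 in limma-voom, 0 with all 18 libraries and 11 with only the hybrid and Red River libraries. Other alternatives kept each count within 1.5 times. Leaving out a library gave 1 to 6 rises and 5 to 35 falls in hybrids, 2 to 7 and 8 to 18 in Red River fish, 10 to 14 and 22 to 50 averaged, and 0 and 0 for the difference. Over all transcripts it gave 2172 to 4383, 4512 to 8086, 10253 to 13444 and 2 to 16 calls in these 4 comparisons. The lowest totals in hybrids were 2172 without L4, 2460 without H6 and 2487 without L7, and in Red River fish 4512 without L6, 4642 without H4 and 4921 without H7, against 3926 and 7558 with all 15. For the difference, calls numbered 16 without H1, 9 without H9, 8 without H2, 7 without L1 or L2 and 6 without H6.

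Of the 200 transcripts, 40 were chosen again with a minimum of 1 CPM, 101 with 10 CPM, 192 with TMM sizes, 190 from the authors' normalized table, 184 with L8 added, and 161 to 196 without a library. The median position was 0.757 (L3) and 0.310 (L5) in linear CPM, 0.479 (L5) with ends from the low temperature only, both settings added after the data were seen, and 0.0882 (L8) with TMM sizes. Why these values differ was not tested. Each transcript had at least 1265 reads over the Red River libraries.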
